A study of Mus musculus with 8 samples.

Results

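The DNA replication and S phase genes are 43 named genes whose products license replication origins, open and copy DNA, supply its building blocks or drive the step from G1 into S phase. They were taken by name from a list. Of the 43 genes, 42 had a probe set annotated to that gene alone, among 30560 genes tested, and Mcm7 was not analysed here because its probe set is annotated with several genes. Each of the 42 genes was represented by 1 probe set.

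The study set paw skin of mice that lack keratin 16 (Krt16), a keratin of palm and sole epidermis and of stressed skin, against that of normal littermates. Forepaw skin was taken at 8 weeks of age from 8 C57Bl/6 mice, and the RNA of each mouse went onto 1 Affymetrix array. The 4 Krt16 null mice (2 males and 2 females) carry bacterial LacZ in place of the Krt16 coding sequence, from KOMP embryonic stem cells, and all 4 samples are labelled as lesions. The 4 wild-type (WT) mice (2 males and 2 females) carry no such allele and are labelled normal, so loss of Krt16 and the presence of a lesion cannot be told apart.

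Replication is set up in G1, when the origin recognition complex (Orc1 to Orc6), Cdc6 and Cdt1 load the ring of MCM proteins (Mcm2 to Mcm7) onto origins. At the start of S phase the Dbf4-Cdc7 kinase and cyclin-dependent kinases let Cdc45 and the GINS complex join the ring, which makes the active helicase. DNA polymerase alpha with primase starts each strand, polymerases delta and epsilon extend it on the sliding clamp Pcna, and Fen1 and Lig1 join the lagging strand pieces. E2F factors turn on many of these genes at the G1/S boundary. In normal epidermis, DNA synthesis takes place mainly in the basal keratinocyte layer.

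E2F-type sequence was more frequent in the promoters of these genes than in promoters at large, and 4 promoters are shown to set that beside the array values. RefSeq windows of 300 bases (GRCm38.p6, from 250 before to 50 after the annotated start) were matched for 36 of the 43 genes, 44 windows in all. The strings searched, on both strands, were TTTCCCGC, TTTGCCGC, TTTCGCGC and TTTGGCGC, which can overlap one another. At least 1 of them occurred in 16 of 44 windows (36.4%), against 744 of 32851 windows of all genes (2.26%). The sequences below read 5′ to 3′ on the gene's strand, and capitals mark matches. Of the 9 genes called higher in null skin, 7 had a window, and among these only Pola1 held a match. The Mcm10 window ends in TTTGGCG, which is TTTGGCGC without its last letter, so a match across that edge could not be judged. Mcm5 and Mcm6 belong to the ring and hold several, and Rrm2 had the largest difference of all 42 genes and no match.
Pola1: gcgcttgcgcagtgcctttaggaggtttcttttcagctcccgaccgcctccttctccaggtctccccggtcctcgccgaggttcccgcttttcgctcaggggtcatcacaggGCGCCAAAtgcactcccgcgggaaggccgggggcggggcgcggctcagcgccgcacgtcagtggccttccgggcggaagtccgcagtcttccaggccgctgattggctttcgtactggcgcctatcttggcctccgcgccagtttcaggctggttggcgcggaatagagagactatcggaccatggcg
Mcm5: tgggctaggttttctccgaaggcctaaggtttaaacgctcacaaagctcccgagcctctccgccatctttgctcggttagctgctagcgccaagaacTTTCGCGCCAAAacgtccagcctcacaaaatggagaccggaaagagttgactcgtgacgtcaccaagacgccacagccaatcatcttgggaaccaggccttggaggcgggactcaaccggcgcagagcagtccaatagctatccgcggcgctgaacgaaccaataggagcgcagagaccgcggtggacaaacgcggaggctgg
Mcm6: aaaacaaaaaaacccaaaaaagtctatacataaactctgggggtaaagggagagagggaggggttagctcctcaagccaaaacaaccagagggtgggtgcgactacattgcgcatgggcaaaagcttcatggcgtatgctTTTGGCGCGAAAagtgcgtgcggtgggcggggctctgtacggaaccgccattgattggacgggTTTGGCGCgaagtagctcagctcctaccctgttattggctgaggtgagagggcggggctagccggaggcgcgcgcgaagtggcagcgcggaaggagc
Rrm2: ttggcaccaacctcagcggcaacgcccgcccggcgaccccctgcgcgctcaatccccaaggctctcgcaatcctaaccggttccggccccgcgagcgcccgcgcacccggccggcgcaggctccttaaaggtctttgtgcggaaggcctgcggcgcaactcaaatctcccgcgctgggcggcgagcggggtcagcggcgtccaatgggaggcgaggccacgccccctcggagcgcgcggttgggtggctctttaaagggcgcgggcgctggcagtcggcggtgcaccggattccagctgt
The Pola1 window is chrX:93632106-93632405 on the minus strand, with a match whose first base lies at -138 from the start. The Mcm5 window is chr8:75109259-75109558 on the plus strand, with overlapping matches at -153 and -149. The Mcm6 window is chr1:128359656-128359955 on the minus strand, with matches at -110, -106 and -47, the first pair overlapping. The Rrm2 window is chr12:24708004-24708303 on the plus strand. The string CCAAT occurred in 25 of the 44 windows (56.8%), against 37.4% of all windows. The string TTTGAA, part of the element through which many mitotic genes are held silent until G2, occurred in 8 of 44 windows (18.2%), close to the 17.9% of all windows. A match is a description of the letters and not evidence of binding.

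The values are log2 RMA signals (a background-corrected, quantile-normalized summary per probe set), all differences below are null minus WT on that scale, and a difference of 1 is a doubling of signal. A gene was called when the Benjamini-Hochberg adjusted p over all 30560 genes, from limma with sex as a covariate, was under 0.05. Array medians lay between 4.04 and 4.09, and medians of the negative control probe sets between 4.26 and 4.46. All 42 genes except Orc1 lay above the negative control median on all 8 arrays. For the targeted gene, Krt16 signal was 6.83 to 6.99 in null skin and 7.05 to 9.66 in WT skin, a difference of -1.45 (SE 0.44, adjusted p = 0.0615, limma). The groups did not overlap, but the lowest WT array, female WT 1 at 7.05, lay close to the null arrays, and the other 3 WT arrays lay at 8.20 to 9.66. The part of the transcript covered by that probe set is not given in the sources used here.

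Most replication genes had a higher mean signal in null skin, by small amounts, and 2 genes of deoxynucleotide supply and cyclin E1 rose most. Of the 42 genes, 9 rose (21.4%), and 7.04% of all genes tested rose. None fell, where 5.97% of all genes did. The 9 were Rrm2, Ccne1, Rrm1, Mcm4, Pola1, Mcm10, Fen1, Tyms and Rfc2. A further 5 had an unadjusted p under 0.05 in limma, which makes 14 genes, all higher in null skin, and 14.5% of all genes were higher at that level. The difference was above 0 for 38 of 42 genes (90.5%), against 54.7% of all genes, and its median was 0.16, against 0.01 over all genes. The 4 genes with a difference below 0 were Mcm8, Rpa1, E2f1 and E2f2, and none of them was called. All 4 null arrays lay above all 4 WT arrays for 11 of the 42 genes (26.2%), against 10.1% of all genes. In RNA from whole skin, more cells of a type and more RNA per cell cannot be told apart.

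**Figure D1:**
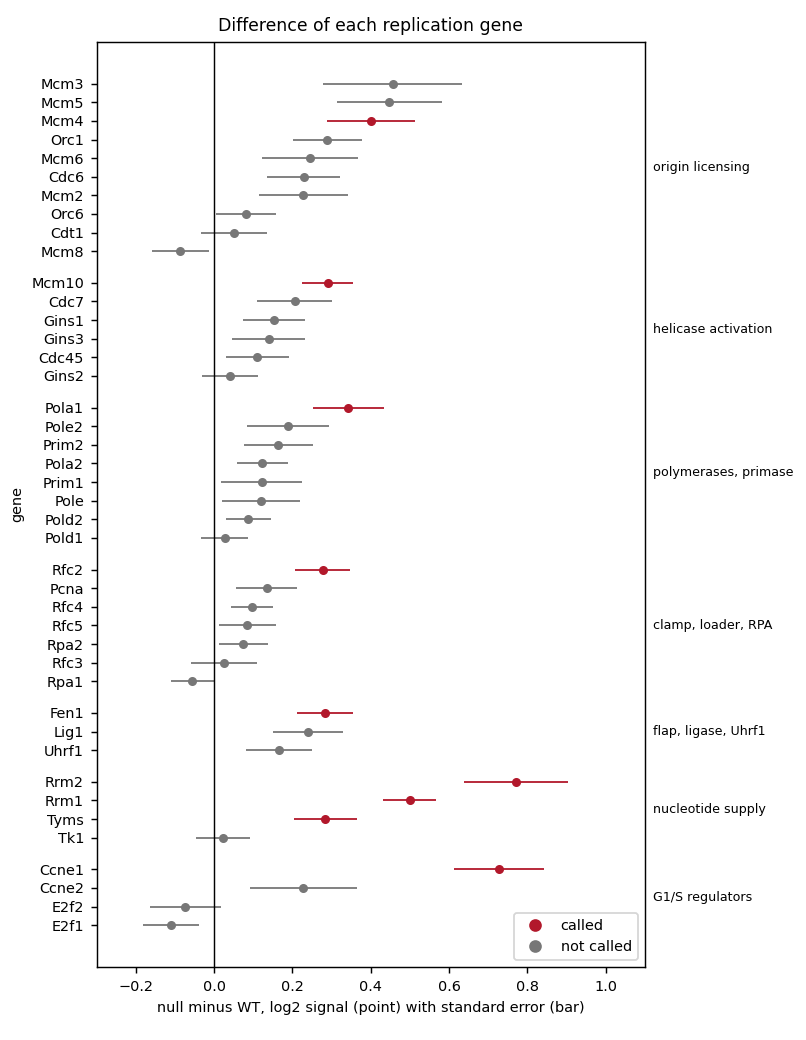
Difference between Krt16 null and WT paw skin for each of the 42 replication genes, grouped by role. The x axis is null minus WT in log2 RMA signal, points are limma estimates from 4 null and 4 WT arrays, bars are 1 standard error, and red marks genes called at an adjusted p under 0.05. All 9 red points lie to the right of 0, from 0.28 to 0.77, and the 4 points left of 0 reach -0.11.

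Deoxynucleotide supply had the largest median difference of the 7 roles, 0.39, with 3 of 4 genes called. Each other role had 1 gene called, 10.0% to 33.3% of its genes, where 7.04% of all genes were called higher. With 1 gene called, such a share says little about a role. Ribonucleotide reductase makes deoxynucleotides and consists of a large subunit, Rrm1, and a small subunit made in S phase, Rrm2. Rrm2 signal was 6.14 and 6.35 in male WT, 5.93 and 6.36 in female WT, 6.73 and 7.25 in male null and 7.05 and 6.83 in female null skin. The 2 groups were separated by a gap between 6.36 and 6.73, and the difference was 0.77 (SE 0.13), a 1.71-fold increase (limma adjusted p = 0.00687). Rrm1 signal was 7.65 and 7.73 in male WT, 7.54 and 7.76 in female WT, 8.16 and 8.31 in male null and 8.13 and 8.09 in female null skin. The highest WT array lay at 7.76 and the lowest null array at 8.09, and the difference of 0.50 (SE 0.07, 1.41-fold) was several times the SD of 0.10 within either group. Its adjusted p of 0.00222 (limma) was the lowest of the 42 genes.

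Tyms, thymidylate synthase, makes thymidylate, and Tk1, thymidine kinase, salvages thymidine. Tyms is given in full after its values were seen. Its signal was 5.66 and 5.66 in male WT, 5.45 and 5.77 in female WT, 5.90 and 6.06 in male null and 5.79 and 5.94 in female null skin. The highest WT array lay just under the lowest null array, and the difference was 0.28 (SE 0.08, limma adjusted p = 0.0481). Tk1 differed by 0.02 (SE 0.07), with a WT mean of 6.25 ± 0.14 and a null mean of 6.27 ± 0.08 (SD, n = 4 each). The p53-induced small subunit of the reductase, Rrm2b, is not among the 42 genes and went the other way. Its WT mean was 6.06 ± 0.06 and its null mean 5.84 ± 0.08, a fall of 0.22 (SE 0.05, limma adjusted p = 0.0195).

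Among the G1/S regulators 1 of 4 genes, cyclin E1, was called, and the median difference was 0.08. Cyclin E with Cdk2 pushes cells over the G1/S boundary, and Ccne1 and Ccne2 encode its alternative forms. Ccne1 signal was 4.88 and 4.92 in male WT, 4.76 and 4.99 in female WT, 5.42 and 5.99 in male null and 5.51 and 5.55 in female null skin. All null arrays stood clear of all WT arrays, male null 2 highest, and the difference was 0.73 (SE 0.12, 1.66-fold, limma adjusted p = 0.00478). Ccne2 signal was 4.94 and 5.38 in male WT, 4.86 and 5.36 in female WT, 5.28 and 5.62 in male null and 5.24 and 5.32 in female null skin. Its groups overlapped, because the WT 2 arrays of both sexes lay among the null arrays, and the difference was 0.23 (SE 0.14, adjusted p = 0.341). The activator E2F genes were not called. The difference was -0.11 for E2f1 (SE 0.07, limma adjusted p = 0.382), and for E2f2 it was -0.07 (SE 0.09, limma adjusted p = 0.687).

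**Figure D2:**
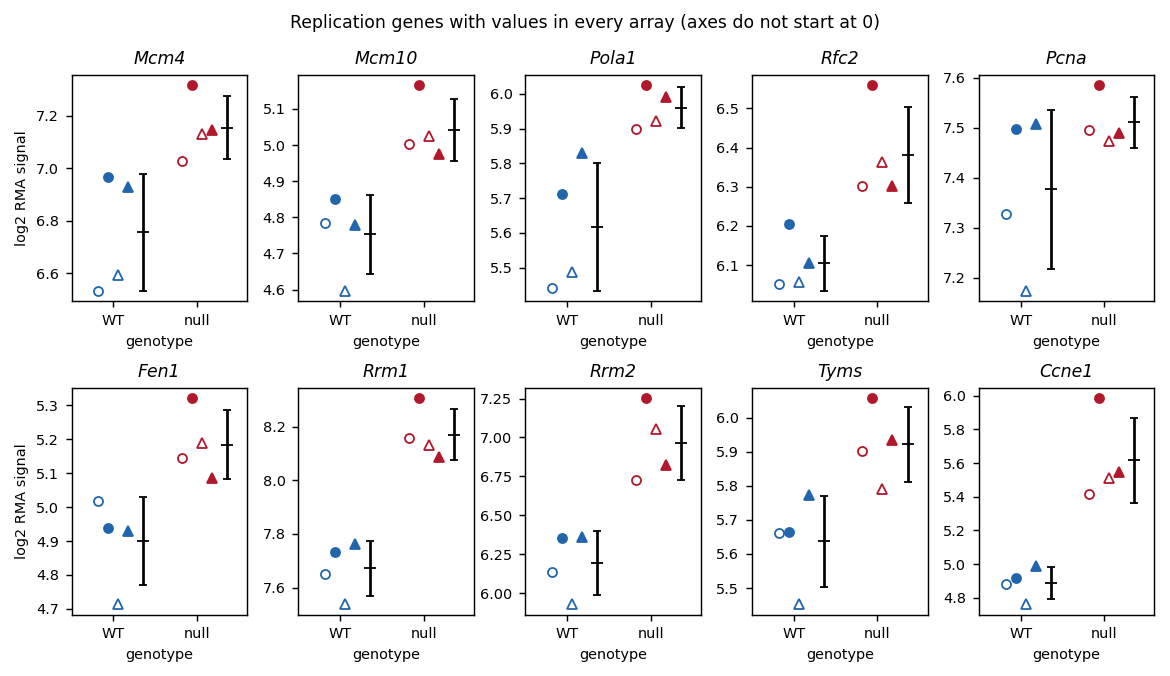
Signal of 10 replication genes on each of the 8 arrays. The y axes are log2 RMA signal and do not start at 0, circles are males, triangles females, open symbols mouse 1 and filled symbols mouse 2 of each group, and the bar beside each group is its mean with 1 SD (n = 4). Null and WT arrays are separate for all genes shown except Pcna, and male null 2, the filled red circle, is the highest array in each panel.

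In origin licensing 1 of 10 genes was called, and the median difference was 0.24. Mcm4, a subunit of the ring, had signal of 6.53 and 6.97 in male WT, 6.59 and 6.93 in female WT, 7.03 and 7.32 in male null and 7.13 and 7.15 in female null skin. Its null arrays all lay above its WT arrays, narrowly for male null 1, and it rose by 0.40 (SE 0.11, limma adjusted p = 0.0481). Mcm3 and Mcm5, also ring subunits and chosen here after their values were seen, had estimates as large but a wider spread. Mcm3 signal was 6.14 and 6.66 in male WT, 6.08 and 6.82 in female WT, 6.70 and 7.15 in male null and 6.75 and 6.92 in female null skin. Female WT 2 lay inside the null range, and the difference of 0.46 carried an SE of 0.18 (adjusted p = 0.134). Mcm5 signal was 6.08 and 6.54 in male WT, 6.01 and 6.46 in female WT, 6.60 and 7.0 in male null and 6.64 and 6.64 in female null skin. Its groups did not overlap, and the difference was 0.45 (SE 0.13, adjusted p = 0.0605).

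The remaining licensing genes were not called. Mcm6 and Mcm2, the other ring subunits measured, differed by 0.25 (SE 0.12) and 0.23 (SE 0.11). The loaders Cdc6 and Cdt1 differed by 0.23 (SE 0.09) and 0.05 (SE 0.08). Orc1, the origin recognition subunit that comes and goes with the cell cycle, differed by 0.29 (SE 0.09, adjusted p = 0.0646), but it lay above the negative controls on 1 array only, so the size of its difference is not exact. Orc6, another subunit of that complex, differed by 0.08 (SE 0.08). Mcm8 works in repair by recombination rather than in the ring, and differed by -0.09 (SE 0.07). Its null arrays lay close together, at 4.97 to 4.99, inside the WT range of 4.95 to 5.19.

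Helicase activation had 1 of 6 genes called and a median difference of 0.15. Mcm10 binds the loaded ring and is needed to turn it into a working helicase. Its signal was 4.78 and 4.85 in male WT, 4.60 and 4.78 in female WT, 5.0 and 5.17 in male null and 5.03 and 4.97 in female null skin. The groups were separate, and Mcm10 rose by 0.29 (SE 0.07, limma adjusted p = 0.0209). Cdc45, the helicase partner of the ring, differed by 0.11 (SE 0.08), and the GINS subunits Gins1, Gins2 and Gins3 by 0.15, 0.04 and 0.14. Cdc7, the catalytic subunit of the kinase that fires origins, differed by 0.21 (SE 0.10, adjusted p = 0.211). Dbf4, its regulatory subunit, is not among the 42 genes and rose by 0.53 (SE 0.08, limma adjusted p = 0.00374), from 4.92 ± 0.12 to 5.44 ± 0.10 (SD, n = 4 each).

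Of the 8 polymerase and primase genes, 1 was called, and the median difference was 0.12. Pola1, the catalytic subunit of polymerase alpha, had signal of 5.44 and 5.71 in male WT, 5.49 and 5.83 in female WT, 5.90 and 6.03 in male null and 5.92 and 5.99 in female null skin. Its null arrays were close together and all above the WT arrays, of which the WT 1 arrays were the lowest, and it rose by 0.34 (SE 0.09, limma adjusted p = 0.0383). The partners of Pola1 in the same complex, Pola2, Prim1 and Prim2, differed by 0.12 (SE 0.07), 0.12 (SE 0.10) and 0.16 (SE 0.09). The subunits of polymerase epsilon, Pole and Pole2, differed by 0.12 and 0.19. Those of polymerase delta, Pold1 and Pold2, differed by 0.03 and 0.09.

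The clamp, clamp loader and single-strand binding genes had a median difference of 0.09, with 1 of 7 called. Rfc2, a subunit of the loader that places Pcna on DNA, had signal of 6.05 and 6.20 in male WT, 6.06 and 6.11 in female WT, 6.30 and 6.56 in male null and 6.36 and 6.30 in female null skin. Its groups were separate, and it rose by 0.28 (SE 0.07, limma adjusted p = 0.0318). Pcna, the sliding clamp and a usual marker of S phase, had signal of 7.33 and 7.50 in male WT, 7.17 and 7.51 in female WT, 7.50 and 7.59 in male null and 7.47 and 7.49 in female null skin. Both WT 2 arrays lay within the null range while both WT 1 arrays lay below it, and the difference was 0.13 (SE 0.08, adjusted p = 0.329). The other loader subunits Rfc3, Rfc4 and Rfc5 differed by 0.03, 0.10 and 0.09. Rpa1 and Rpa2, which coat single-stranded DNA, differed by -0.06 and 0.07.

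Fen1, Lig1 and Uhrf1 act behind the fork, and 1 of the 3 was called, with a median difference of 0.24. Fen1, the nuclease that trims flaps between lagging strand pieces, had signal of 5.02 and 4.94 in male WT, 4.71 and 4.93 in female WT, 5.14 and 5.32 in male null and 5.19 and 5.08 in female null skin. The groups did not overlap, male WT 1 and female null 2 being nearest, and it rose by 0.28 (SE 0.07, limma adjusted p = 0.0317). Lig1, the ligase that seals those pieces, differed by 0.24 (SE 0.09, adjusted p = 0.123). Uhrf1, which brings the maintenance methyltransferase to new DNA, differed by 0.17 (SE 0.08, adjusted p = 0.25).

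In these genes the WT arrays also differed from one another. Female WT 1 was the lowest of the 8 arrays for 30 of 42 genes (71.4%), against 15.8% of all genes, and male null 2 was the highest for 34 (81.0%), against 17.2%. In both sexes the WT 1 array lay under the WT 2 array for 35 of 42 genes (83.3%), against 26.7% of all genes. All null arrays lay above both WT 1 arrays for 30 genes but above both WT 2 arrays for 11, where the shares over all genes were 17.9% and 17.5%. Female WT 1 also had the highest mean of the skeletal muscle markers, 9.75 on the log2 scale, and of the neutrophil markers, 5.80, where the other 7 arrays lay at 8.15 to 9.34 and 4.41 to 5.09, and it was the WT array with the lowest Krt16 signal. With both WT 1 arrays left out, a choice made after seeing the data, 33 of 42 differences were above 0 and their median was 0.046. In that fit 3 of 42 genes were called (7.14%), a share near the 5.19% of all genes called higher. The 3 genes were Ccne1 at 0.66, Rrm2 at 0.61 and Rrm1 at 0.42, with adjusted p-values of 0.0313, 0.0341 and 0.0125 from limma.

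**Figure D3:**
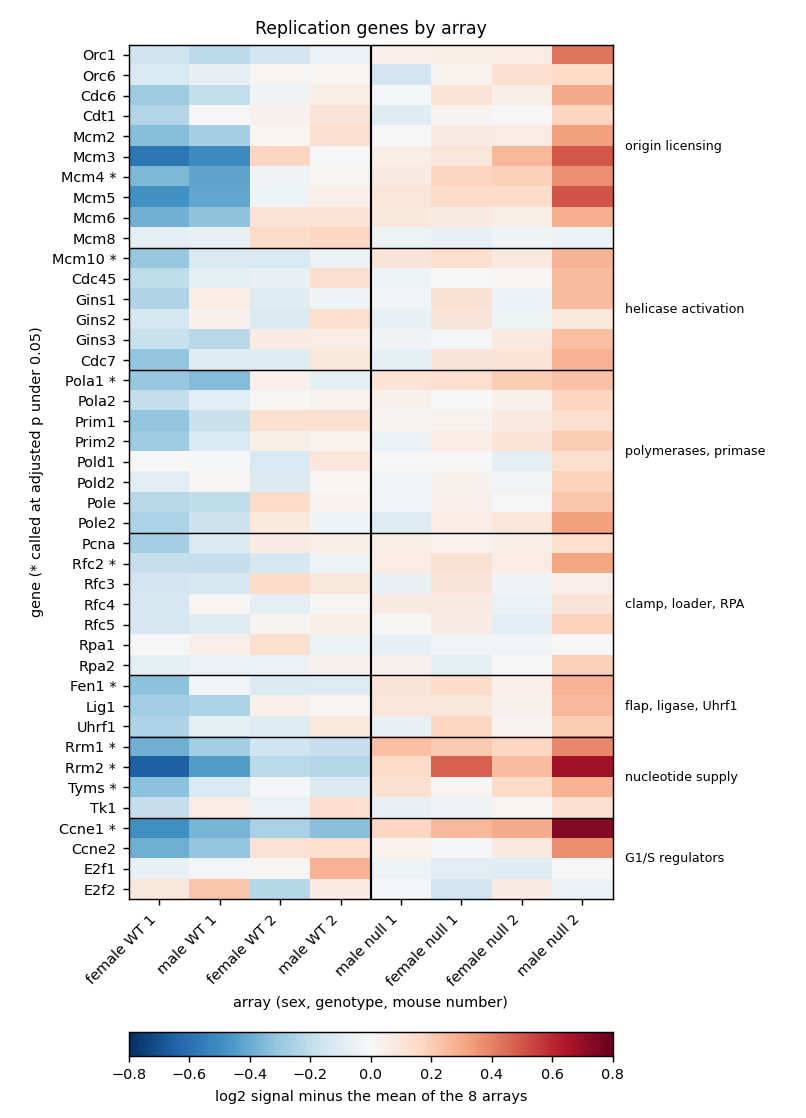
Signal of the 42 replication genes on each of the 8 arrays, as log2 signal minus the gene's mean over all arrays. Columns are arrays named by sex, genotype and mouse number with WT left of the line, rows are genes by role, the colour bar gives the scale in log2 units, and * marks called genes. Female WT 1 and male WT 1 are blue for most genes, the WT 2 arrays are near white, and male null 2 is the reddest column.

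With 1 array left out at a time, fewer arrays enter each fit. Rrm1, Rrm2 and Ccne1 were called in all 8 such fits, with highest adjusted p-values of 0.0118, 0.0294 and 0.0202. They were the 3 called without male WT 1, without male null 2, without female null 1 or without female null 2, which is 7.14% of the 42 genes, against 3.91% to 5.6% of all genes called higher in those fits. Without female WT 1, 4 genes were called (9.52%, against 7.45% of all genes), the fourth being Mcm10, a share near that of all genes. Without male WT 2, 6 were called (14.3%, against 4.78%), and without male null 1, 8 (19%, against 6.34%). Without female WT 2, 11 were called (26.2%, against 6.32%), among them Mcm3, Mcm5 and Lig1. Orc1 and Cdc7 were called without male null 1. Of the other 6 genes called with all arrays, Mcm10 was called in 4 of the 8 fits, Mcm4, Pola1 and Fen1 in 2, and Rfc2 and Tyms in 1. Over the 8 fits the differences stayed above 0, at 0.25 to 0.33 for Mcm10, 0.31 to 0.48 for Mcm4, 0.28 to 0.42 for Pola1, 0.23 to 0.33 for Fen1, 0.22 to 0.32 for Rfc2 and 0.23 to 0.35 for Tyms.

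With same-numbered WT and null mice of each sex treated as 4 pairs, which the labels do not state, 12 genes were called, where 8.27% of all genes were called higher. These were the 9 above and Mcm5 (adjusted p = 0.0109), Mcm3 (0.0195) and Orc1 (0.0322), all from limma. Of these, Orc1 lay above the negative controls on 1 array only. The estimates were those given above, and the median SE over the 42 genes went from 0.084 to 0.068. With each array centred on its own median, 6 genes were called (14.3%, against 6.45% of all genes called higher). Mcm4 (0.40, adjusted p = 0.0687), Pola1 (0.34, 0.0625) and Tyms (0.29, 0.0795) missed the threshold in limma with differences close to those above. With quantile normalization repeated, Tyms missed it (adjusted p = 0.0548). The 38 genes with a difference above 0 numbered 38 under both scalings too.

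Most differences lay above 0 in each sex, with fewer calls than over both. In males the median difference of the 42 genes was 0.13, 35 lay above 0, 11 had an unadjusted p under 0.05 (26.2%, against 17.6% of all genes), and Rrm1 was called (0.54, limma adjusted p = 0.0375), where 1.6% of all genes were called higher. The groups share 1 estimate of the spread, and limma called none of the 42 genes in males once either male WT array, either female null array or male null 2 was left out. In females the median was 0.16, 39 lay above 0, and none was called in limma, where 1.62% of all genes were called higher. In females 7 of the 42 had an unadjusted p under 0.05 (16.7%), against 18.9% of all genes. In both sexes the share of all genes at that level counts rises and falls together, while the replication genes counted were all higher in null skin. By sex, the share of all genes that were higher at that level was not computed, so an excess cannot be judged from these shares. The lowest adjusted p in females was 0.0539, for Rrm1. The difference between the sexes was called for none of the 42 genes in limma, where 0.00654% of all genes were called, none had an unadjusted p under 0.05 for it, and the lowest adjusted p was 0.974. Male minus female estimates of the null effect ran from -0.23 to 0.15, from 2 arrays per sex and genotype.

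Other cell cycle genes, from 5 lists, changed unevenly. Mitotic genes changed most often, with 18 of 24 higher (75.0%), none lower, and a median difference of 0.36. Examples are Cenpe, a kinetochore motor, at 0.79 (adjusted p = 0.00325), Bub1, a spindle checkpoint kinase, at 0.61 (0.000972), and Aurka, a spindle pole kinase, at 0.59 (0.0183). Of 34 other replication genes, 6 rose and none fell, with a median of 0.10. Beside Dbf4, they include the licensing inhibitor geminin (Gmnn) at 0.40 (adjusted p = 0.00376) and the checkpoint mediator claspin (Clspn) at 0.40 (0.0124). Of 23 chromatin and nucleotide genes of S phase, 2 rose, the histone chaperone Asf1b at 0.22 (0.042) and the recombination gene Rad54l at 0.30 (0.0498), and Rrm2b fell. Those shares, 8.70% higher and 4.35% lower, are near the 7.04% and 5.97% of all genes. Rad54l lay above the negative controls on 5 arrays only.

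Among 25 cyclin, CDK, E2F and pocket protein genes, 10 rose and 3 fell, with a median of 0.11. The G1 kinase Cdk6 had signal of 7.45 to 7.63 in WT and 8.10 to 8.60 in null skin, and rose by 0.82 (SE 0.10, limma adjusted p = 0.00152). The repressor E2F genes E2f7 and E2f8, which are themselves made in S phase, rose by 0.68 (adjusted p = 0.0049) and 0.60 (0.00367). Cyclin D2 (Ccnd2), a partner of Cdk6, fell by 0.66 (adjusted p = 0.0035), and Tfdp2, a partner of E2F proteins, fell by 0.29 (0.0236). Tfdp1, another such partner, given after its values were seen, rose by 0.34 (SE 0.06, limma adjusted p = 0.00747). Of 14 CDK inhibitors and brakes, 2 fell (14.3%, against 5.97% of all genes), too few to say much about the list. Cdkn2c, an inhibitor of Cdk4 and Cdk6, fell by 0.39 (adjusted p = 0.00962), and Cdkn1a (p21) by 0.25 (0.0393). The list's 1 higher gene, Cdh1 at 0.27 (adjusted p = 0.0496), is the mouse symbol for E-cadherin, an adhesion protein, and 1 of 14 (7.14%) is near the share of all genes.

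Some of these calls were lost with 1 array fewer. Asf1b kept its call only without male null 1, Cdh1 only without female WT 2, Rad54l only without male null 1 or female WT 2, and Cdkn1a only without male WT 1 or male null 1. Rrm2b, Tfdp2 and Aurka each lost the call without male null 2 and without female null 1. Rrm2b lost it too without male WT 1 or male WT 2, Tfdp2 without male WT 1 or female WT 2, and Aurka without male WT 2 or female null 2. Without both WT 1 arrays, Clspn also missed the threshold (adjusted p = 0.0601), while 17 of 24 mitotic genes were called. The mitotic count was 11 without male WT 2 or without male null 2, and 10 without female null 1 or without female null 2.

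**Figure D4:**
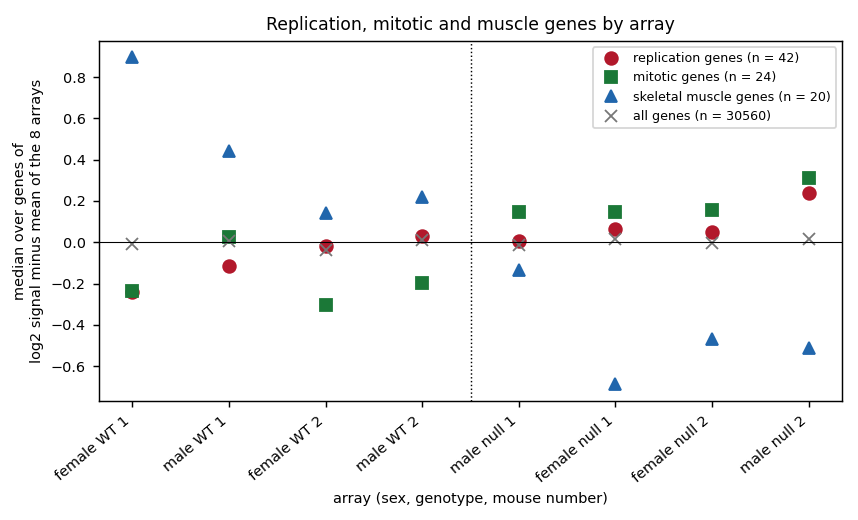
Median over genes of log2 signal minus each gene's mean over the 8 arrays, for the 42 replication genes, 24 mitotic genes, 20 skeletal muscle markers and all 30560 genes. The x axis lists arrays by sex, genotype and mouse number, with WT left of the dotted line. Replication genes lie lowest in the WT 1 arrays (-0.24 and -0.12), mitotic genes lie lowest in female WT 2 (-0.30), and muscle markers run from 0.90 in female WT 1 to -0.69 in female null 1.

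Markers of some other cell types differed by genotype too, where 7.04% of all genes were called higher and 5.97% lower. Skeletal muscle markers were lower in null skin, 18 of 20 called, with a median of -0.89, and their mean level was 9.01 to 9.75 in WT and 8.15 to 8.73 in null arrays. With that mean added to limma as a covariate, none of the 42 replication genes was called, 15 of 42 differences were above 0, and the median was -0.11. The estimates for the 9 called genes then ran from 0.01 to 0.46, with Ccne1 at 0.46, Rrm1 at 0.31 and Rrm2 at 0.21. The median of the 24 mitotic genes was 0.38 in that fit, with none called in limma, against 0.36 without the covariate. Differences above 0 turned to -0.20 for Mcm3, -0.04 for Mcm5, -0.15 for Cdc45, -0.15 for Pcna and -0.24 for Ccne2, none of them called in either fit. The muscle mean and sex together account for 75.1% of the genotype term, the median SE rose to 0.132, and 0.56% of all genes were called higher in that fit. Basal keratinocyte markers, of the layer that divides, had 4 of 9 lower and none higher, with a mean level of 8.84 to 9.01 in WT and 8.66 to 8.87 in null arrays. The 4 were Krt15, Col17a1, Dst and Lama3. Krt5 and Krt14 differed by 0.11 and 0.20, and Itga6, Itgb4 and Trp63 by -0.03, -0.09 and -0.09, none of them called. Suprabasal markers had 1 higher and 2 lower of 10.

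Dendritic and Langerhans cell markers had 5 of 7 higher, with a mean level of 5.10 to 5.20 in WT and 5.47 to 5.65 in null arrays. Of the 5 genes, Flt3 lay above the negative controls on 0 arrays and Itgax on 5. T and NK cell markers had 2 of 10 higher, at 3.92 to 4.04 and 4.11 to 4.28. Those means lay near or under the negative control medians of 4.26 to 4.46. Of the 2 genes, Cd3g lay above the negative controls on 0 arrays, and Il7r, which rose by 1.21, on all 8. Melanocyte markers had 5 of 6 higher, at 4.12 to 4.39 and 4.71 to 5.30, and endothelial markers 2 of 6. The melanocyte means in WT arrays also lay near or under the negative control medians. Neutrophil markers had 1 of 8 higher, macrophage markers 2 of 10 lower, fibroblast markers 2 of 6 lower, and Schwann cell and adipocyte markers 1 lower each. Lists with only 1 or 2 called genes say little beside the 7.04% of all genes called higher and 5.97% called lower. B cell and mast cell markers had none called in limma. Several of these cell types can divide, and the part of their numbers in the replication gene differences was not tested.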

How the data were processed

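Total RNA from forepaw skin of 8 mice was labelled with the WT PLUS kit and measured on single-colour arrays, per the labels' protocols. The deposited values are log2 signals from RMA in Partek, per the submitters' processing notes. No version is stated there. RMA compresses large fold changes. Arrays have no read depth, and their number limits the precision.

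Of 72688 probe sets, 6732 controls were left out, 31089 had exactly 1 gene after symbols were updated through a RefSeq table (GRCm38.p6), and the brightest stood for each of 427 genes with several, which gave 30560 genes. No filter on dim genes was applied. Differences were fitted in limma 3.58.1 (R 4.3.3; lmFit, eBayes with intensity trend) with sex as covariate and 5 residual degrees of freedom, and by sex from 4 group means. The limma script was tested on simulated data. Python 3.11.15 with pandas 2.3.3 prepared the tables.

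The 43 genes and all lists were chosen with earlier results of these data known. Values on every array are given for the largest called differences in each role, Pcna and, where stated, genes chosen after their values were seen. Each pathway list contributes its 3 highest and 2 lowest called genes and, where stated, a gene chosen after its values were seen. Mice are numbered within sex and genotype, and the labels call the WT mice littermates without stating which mice shared a litter, batch or day. Across genes, the deviations of same-numbered WT and null mice had correlations of 0.318 (males) and 0.116 (females), both over 0.1. With 2 mice per sex and genotype, such correlations cannot show whether the mice were paired. A fit with 4 pairs was run beside the first. There were 21 alternative settings, 8 of them leaving out 1 array.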

Additional observations from a re-analysis of the deposited data

Results flagged for a closer look

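For each of the 42 genes the 4 WT and the 4 null arrays were examined for a single array far from the other 3, which gave 84 groups, and 3 stood out by Dixon's criterion. Chance alone marks about 1 in 20 such groups. All 3 concern male null 2. Orc1 signal there was 4.33, against 3.94 to 3.96 on the other null arrays, and male null 2 was the only array with Orc1 above the negative controls. Mcm5 signal was 7.0, against 6.60 to 6.64. Cdc45 signal was 6.20, against 5.90 to 5.95. Male null 2 was also the highest array for most of the 42 genes, as the report gives. The reason was not tested.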

How the results depend on the processing

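With the skeletal muscle mean as a covariate, 171 genes were called higher and 72 lower, with 0 of the replication genes, 0 genes higher and 0 lower over the 5 pathway lists and 0 mitotic genes among them. In that fit the median of the replication genes reversed to -0.11, Rad54l to -0.0061 and Dpt, a fibroblast marker, to 0.043, and 15 of the 42 replication genes had a difference above 0, against 38. The mitotic median was 0.38 there, against 0.36. The cause was not tested. With both WT 1 arrays left out, 3 replication genes were called (7.14%, against 5.19% of all genes called higher).

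Leaving out 1 array at a time gave 1194 to 2277 genes higher and 833 to 1850 lower, 3 to 11 replication genes higher and 0 lower, 22 to 41 higher and 2 to 7 lower over the pathway lists, and 10 to 17 mitotic genes higher. Replication genes called in males numbered 0 to 2, in females 0 to 2, and for the difference of the sexes 0 to 0. In males 0 were called with quantile normalization repeated or median centring, 2 without genes under the median level, and 2 with a robust prior. In females 1 was called without genes under the median level and 1 with a robust prior.

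With the replicate block of 4 pairs, 2527 genes were called higher and 12 of the 42 replication genes. With replicate number as a block beside sex, 2 were called in males and 3 in females. In the last 100 bases before the start, E2F-type strings occurred in 9.09% of the replication gene windows, against 0.85% of all windows. There TTTGAA occurred in 6.82%, against 5.77%, and CCAAT in 47.7%, against 18.9%. That window is shorter and also leaves out the bases after the start, where some E2F-type matches lie, as in Cdt1 at 32 and Pole2 at 10.

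Leaving out the sex term, averaging probe sets, a prior without trend and a robust prior kept each of the 42 genes on its side of the threshold. Only 4 arrays stand for each genotype, and signal near the negative controls understates a change.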

Other observations

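Among WT mice, replication and mitotic genes were ordered differently across arrays. Both WT 1 arrays lay under the WT 2 array of their sex for 35 of 42 replication genes but for 1 of 24 mitotic genes. All null arrays lay above both WT 1 arrays for 16 of the 24 mitotic genes and above both WT 2 arrays for 22, the reverse of the order for replication genes, which were 30 and 11 of 42. In the plot of medians by array, female WT 1 was at -0.24 for both sets, while male WT 1 was at -0.12 for replication and 0.02 for mitotic genes. Every one of these counts is a description of 4 WT mice.

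Promoter strings divided the sets as well. The TTTGAA string occurred in 17 of 23 windows of mitotic genes (73.9%) and CCAAT in 18 (78.3%), while E2F-type strings occurred in 1 (4.35%). Among the replication genes measured and matched to a window, 1 of 7 called genes and 14 of 28 genes not called held an E2F-type string. No test was made of that split, and windows of the called genes Mcm4 and Rfc2 were not used here. The split also depends on where the windows stop, as for the called gene Mcm10, whose window ends inside a possible match.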
